A study of Homo sapiens with 24 samples.

Results

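Separase, its inhibitor securin and the cohesin complex were followed in 4 human cancer cell lines treated with Ocoxin, a nutritional supplement made of plant extracts together with vitamins, minerals and amino acids. The set holds 10 of the 58051 genes counted: ESPL1 (separase), PTTG1 (securin), the cohesin subunits SMC1A, SMC3, RAD21, STAG1 and STAG2, and the cohesin regulators NIPBL, WAPL and PDS5A. The set was chosen by the log2 fold changes of ESPL1, which had opposite signs between the cell lines, and the question was whether cohesin had the same signs. The values of ESPL1 are therefore given as a description with no test. All 10 genes passed the filter on low counts in each of the 4 cell lines.

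The cells were SW620 for colorectal adenocarcinoma (COAD), BxPC-3 for pancreatic adenocarcinoma (PAAD), LNCaP for prostate adenocarcinoma (PRAD) and HCC-70 for triple negative breast cancer (TNBC). Each line gave 3 control libraries and 3 libraries from cells kept with Ocoxin for 48 h, at a dilution of 1:700 in COAD and in TNBC, of 1:500 in PAAD and of 1:50 in PRAD, so that dose and cell line cannot be told apart. The paper chose each dilution as the approximate IC50 of that line for cell viability. Treatment was done in medium with 1% fetal bovine serum, RNA came from the cells that were still adhered, and each cancer type was represented by a single established line. The labels give a dilution for control libraries too, so the letters C and O in the titles decided the group, and they do not say whether the 3 libraries of a group came from separate cultures. The p-values then measure the spread between these libraries, which may be technical.

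Cohesin is a ring that holds sister chromatids together from replication to anaphase. SMC1A and SMC3 form its long arms, RAD21 closes the ring, and STAG1 or STAG2 binds to RAD21 as an alternative subunit. NIPBL loads the ring onto DNA, WAPL opens it to let it go, and PDS5A works with WAPL and also helps to maintain cohesion. Securin keeps separase inactive until the anaphase promoting complex marks securin for destruction, and separase then cuts RAD21. Outside mitosis, cohesin also extrudes the chromatin loops that stop at CTCF. ESPL1 and PTTG1 mRNA is most abundant late in the cell cycle, whereas cohesin subunits are expressed throughout it.

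The promoters of both cell cycle genes and of SMC1A are shown because these are the genes whose responses are contrasted. RefSeq promoter windows of 250 bases before to 50 bases after a gene start (GRCh38.p14) were matched by symbol for 9 of the 10 genes, all but RAD21. They were searched on both strands for TTTGAA, the cell cycle genes homology region (CHR) through which many late cell cycle genes are repressed, for its variant TTTAAA, which was added after the windows had been seen, and for the CCAAT box. For genes with several windows the first listed is shown. The window of ESPL1 is chr12:53268049-53268348 on the plus strand, that of PTTG1 is chr5:160421605-160421904 on the plus strand, and that of SMC1A is chrX:53422679-53422978 on the minus strand. Capitals mark TTTGAA or TTTAAA.
ESPL1: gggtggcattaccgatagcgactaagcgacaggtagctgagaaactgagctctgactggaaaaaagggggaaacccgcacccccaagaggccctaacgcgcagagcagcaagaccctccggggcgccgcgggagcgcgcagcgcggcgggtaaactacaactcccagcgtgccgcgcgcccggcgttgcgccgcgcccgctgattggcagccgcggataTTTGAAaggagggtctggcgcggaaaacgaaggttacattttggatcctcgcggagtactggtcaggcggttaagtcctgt
PTTG1: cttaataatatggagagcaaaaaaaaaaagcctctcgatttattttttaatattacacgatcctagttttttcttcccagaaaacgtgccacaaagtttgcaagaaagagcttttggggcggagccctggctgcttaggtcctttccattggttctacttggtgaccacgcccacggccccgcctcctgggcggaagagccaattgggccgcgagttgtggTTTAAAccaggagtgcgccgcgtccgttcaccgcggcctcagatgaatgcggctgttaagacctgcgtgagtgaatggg
SMC1A: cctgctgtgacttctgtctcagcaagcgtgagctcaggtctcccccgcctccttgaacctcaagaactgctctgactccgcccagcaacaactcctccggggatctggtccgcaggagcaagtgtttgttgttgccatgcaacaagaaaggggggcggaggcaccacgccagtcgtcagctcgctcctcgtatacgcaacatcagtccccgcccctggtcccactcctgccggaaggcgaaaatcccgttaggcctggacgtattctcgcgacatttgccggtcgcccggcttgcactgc
The ESPL1 window held TTTGAA starting 31 bases before its RefSeq start, and the PTTG1 window held TTTAAA starting 29 bases before its own. In the other PTTG1 window the same TTTAAA starts 84 bases before the RefSeq start. Both PTTG1 starts and this TTTAAA lie inside the counted gene, which begins at 160421822, so the distance depends on the start used. Neither SMC1A window held either CHR form or CCAAT. Of the other cohesin genes with a window, SMC3 held TTTGAA on the opposite strand, starting 151 bases before the start, and the others held neither CHR form. CCAAT was found 1 time in the ESPL1 window and 3 times in each PTTG1 window. It was also found in STAG1, WAPL, PDS5A and some of the STAG2 windows, and not in SMC3 or NIPBL. TTTGAA was found in 15.2%, TTTAAA in 12.2% and CCAAT in 34.6% of the 35116 windows of all genes, so a match is a description of these letters only.

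Total counts per library were 25160757 to 34397801 in COAD, 31101178 to 34231106 in PAAD, 9063968 to 9520969 in PRAD and 36863490 to 39009959 in TNBC. The COAD libraries with Ocoxin were all shallower (25160757 to 29670036) than the COAD controls (31265452 to 34397801), and the part of this in the results was not tested. PRAD was counted in a separate run, so levels are set side by side across lines but responses were measured within a line. KLK3, the gene of prostate specific antigen, reached 377 to 410 CPM (TMM-normalised counts scaled to a common library size) in PRAD and at most 13.2 CPM in the other lines, and KRT5, a basal keratin, reached 1409 to 1670 CPM in TNBC and 2427 to 3314 CPM in PAAD. CDX2, an intestinal factor, was at 14.2 to 20.8 CPM in COAD. The biological coefficient of variation was 6.28 to 6.84% in the 4 lines.

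Each of the 9 genes other than ESPL1 was tested in each line, and a gene was called altered at an edgeR adjusted p under 0.05 over all genes tested. In COAD, 2 of the 9 were altered, SMC1A and STAG1, both downregulated, where 2.55% of all genes tested were altered (1.47% up and 1.09% down). In TNBC, SMC1A, SMC3, NIPBL and PDS5A were upregulated and PTTG1 was downregulated, so that 5 of 9 were altered, where 21% of all genes were (9.65% up and 11.3% down). In PAAD none of the 9 was altered, where 8.33% of all genes were (4.72% up and 3.62% down), and in PRAD none was, where 2.98% of all genes were (2.4% up and 0.58% down). SMC1A was the only one of the 9 altered in at least 2 lines, which 5.22% of the 13341 genes tested in all 4 lines were. Altered in at least 1 line were 6 of the 9, beside 30.9% of these genes, and altered in all 4 lines were 0, beside 0.045%. At an unadjusted p under 0.05, 1 of the 9 passed in PAAD and 5 in PRAD. The share of all genes at that threshold was not counted, so these numbers are no result about the 9 genes. DESeq2 called 0 of the 9 in either line, where it called 9.82% (PAAD) and 3.61% (PRAD) of all genes. The changes were small: over the 9 genes and 4 lines the group means differed by at most 17.1%. Libraries hold the RNA of many cells, so fewer cells in a phase of the cell cycle and less RNA per cell cannot be told apart.

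**Figure D1:**
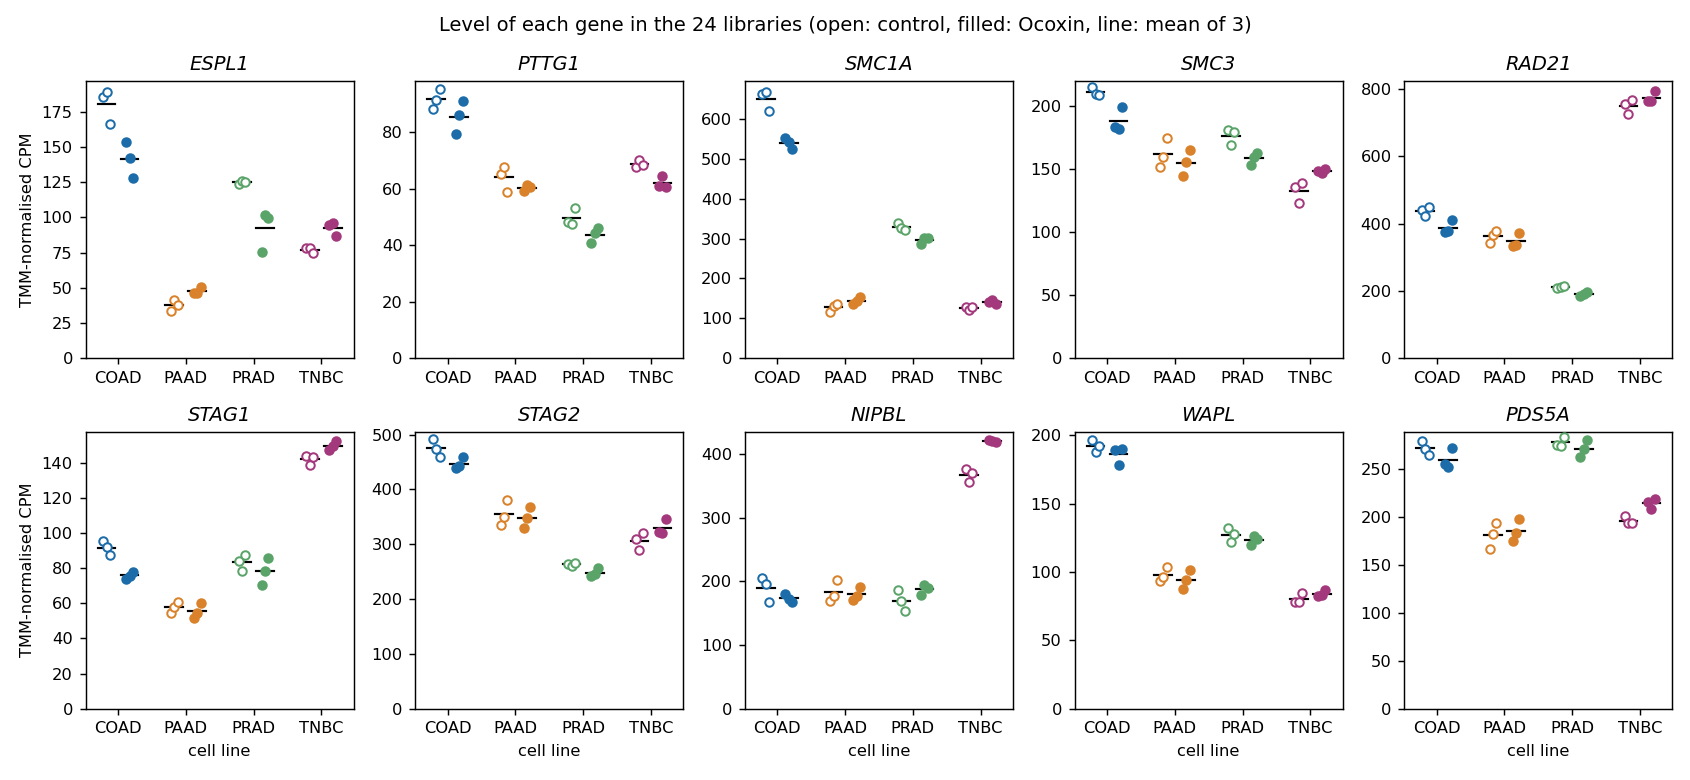
Level of each of the 10 genes in the 24 libraries, in TMM-normalised CPM on the vertical axes, by cell line on the horizontal axis. Open circles are controls, filled circles are Ocoxin and lines are means of 3. ESPL1 lies lower with Ocoxin in COAD and PRAD and higher in PAAD and TNBC, with no overlap between the groups of any line, and PTTG1 has a lower mean with Ocoxin in all 4 lines.

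The control libraries of the lines held different amounts of these mRNAs. Counts were scaled by TMM within each line and PRAD was counted separately, so levels were not normalised across lines. The SDs cover only the spread between libraries of a line. Per kb of exon, the control level of ESPL1 was 20.3 ± 1.38 CPM per kb in COAD, 14.05 ± 0.117 in PRAD, 8.65 ± 0.225 in TNBC and 4.24 ± 0.429 in PAAD (mean ± SD, n = 3), and each neighbouring pair in that order differed beyond both SDs. The lines in which ESPL1 was lower with Ocoxin were thus those with the higher ESPL1 level in controls. SMC1A had the same first places, with 62.1 ± 2.45 CPM per kb in COAD and 31.4 ± 0.853 in PRAD, while PAAD (12.2 ± 0.974) and TNBC (12.02 ± 0.392) lay within their SDs of each other. RAD21, the subunit cut by separase, was ordered otherwise, from 121 ± 3.46 CPM per kb in TNBC through 70.6 ± 2.21 in COAD and 58.5 ± 2.84 in PAAD to 34.2 ± 0.545 in PRAD. PTTG1 was at 45.5 ± 1.81 CPM per kb in COAD, 34.1 ± 0.616 in TNBC, 31.8 ± 2.25 in PAAD and 24.6 ± 1.53 in PRAD, with TNBC and PAAD within their SDs. STAG1 and NIPBL were highest in TNBC, at 18.1 ± 0.338 and 29.3 ± 0.825 CPM per kb. COAD followed for each, at 11.7 ± 0.518 and 15.1 ± 1.56 CPM per kb, within both SDs of the line after it (PRAD for STAG1 and PAAD for NIPBL). SMC3, STAG2 and WAPL were highest in COAD, at 49.4 ± 0.834, 58.0 ± 2.11 and 26.4 ± 0.606 CPM per kb, and PDS5A was at 22.7 ± 0.387 in PRAD and 22.3 ± 0.601 in COAD, within both SDs.

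ESPL1 encodes the protease that opens cohesin at anaphase (ENSG00000135476, hg38 chromosome 12, 53268299 to 53293643, plus strand). In COAD its level was 186, 189 and 166 CPM in the controls and 154, 142 and 128 CPM with Ocoxin. In PRAD it was 124, 126 and 125 CPM in the controls and 75.8, 102 and 99.5 CPM with Ocoxin. In both lines each treated library lay below each control, and in PRAD the lowest treated library stood apart from the other two. The log2 fold changes were -0.35 (SE 0.0645) in COAD and -0.44 (SE 0.101) in PRAD, where it was -0.31 without Ocoxin library 1. In PAAD the controls held 33.8, 41.4 and 37.9 CPM and the treated libraries 46.3, 46.2 and 50.4 CPM. In TNBC the controls held 78.0, 78.2 and 74.6 CPM and the treated libraries 94.4, 95.9 and 87.1 CPM. In these lines each treated library lay above each control, with log2 fold changes of 0.34 (SE 0.0786) in PAAD and 0.27 (SE 0.0483) in TNBC. Such a sign pattern, negative in COAD and PRAD and positive in PAAD and TNBC with no threshold, was shown by 8.96% of the 13341 genes tested in all 4 lines.

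PTTG1, which encodes the inhibitor of separase (ENSG00000164611, chromosome 5, 160421822 to 160428744, plus strand), had a negative log2 fold change in all 4 lines. In TNBC its level was 67.6, 70.1 and 68.3 CPM in the controls and 61.1, 64.5 and 60.7 CPM with Ocoxin. All treated libraries lay below all controls there, and PTTG1 was downregulated (log2 fold change -0.15, SE 0.0463, edgeR adjusted p = 0.0413). This call was lost when any 1 of the 6 TNBC libraries was left out, with adjusted p of 0.0522 to 0.143. In PRAD the level was 48.1, 47.3 and 53.0 CPM in the controls and 40.9, 44.4 and 45.9 CPM with Ocoxin (log2 fold change -0.18, SE 0.0715, edgeR adjusted p = 0.211). In COAD, with 88.1, 91.3 and 95.4 CPM against 79.4, 86.1 and 91.0 CPM, and in PAAD, with 65.1, 67.8 and 59.0 CPM against 59.2, 61.4 and 60.6 CPM, the groups overlapped and the log2 fold changes were -0.10 and -0.08 (edgeR adjusted p = 0.42 and 0.499). PTTG1 has near-identical copies elsewhere in the genome, and multi-mapping reads were counted once, at their primary alignment. The copies took few of them, with a mean of 0.16 to 1.81 CPM for PTTG3P and 0.02 to 0.54 CPM for PTTG2 per group.

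SMC1A, an arm of the ring (ENSG00000072501, chromosome X, 53374149 to 53422728, minus strand), was the cohesin gene whose log2 fold changes had the signs of ESPL1 in all 4 lines together with calls in COAD and TNBC. In COAD its level was 664, 668 and 622 CPM in the controls and 553, 542 and 526 CPM with Ocoxin. The treated libraries lay below all controls and SMC1A was downregulated (log2 fold change -0.27, SE 0.0457, edgeR adjusted p = 0.00259), a call kept in all 14 alternatives run for COAD. In TNBC its level was 128, 121 and 129 CPM in the controls and 142, 147 and 137 CPM with Ocoxin. There the treated libraries lay above all controls and SMC1A was upregulated (log2 fold change 0.17, SE 0.0422, edgeR adjusted p = 0.0126). This call was lost without control 2 (adjusted p = 0.0557), Ocoxin library 1 (0.0502) or Ocoxin library 2 (0.0735), and with the trend of counts with exonic length and GC content removed (0.0939, log2 fold change 0.10). In PAAD the levels were 117, 130.3 and 137 CPM and 136, 142 and 154 CPM, with overlap by 1 library (log2 fold change 0.17, SE 0.0679, edgeR adjusted p = 0.141, and 0.039 without control 3). In PRAD they were 339, 326 and 322 CPM and 287, 302 and 303 CPM, without overlap (log2 fold change -0.15, SE 0.0367, edgeR adjusted p = 0.0782).

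SMC3, the other arm (ENSG00000108055, chromosome 10, 110567691 to 110604636, plus strand), was at 135, 123 and 139 CPM in the TNBC controls and at 148, 147 and 150.0 CPM with Ocoxin. It was upregulated in TNBC (log2 fold change 0.16, SE 0.0472, edgeR adjusted p = 0.0267), where the treated libraries lay above the controls, and the call was lost without control 1 (adjusted p = 0.0541), control 2 (0.0947), Ocoxin library 1 (0.0827) or Ocoxin library 2 (0.0704), or with all 24 libraries in 1 fit (0.0767). In COAD it was at 215, 209.7 and 208 CPM in the controls and 183, 181 and 199 CPM with Ocoxin (log2 fold change -0.17, SE 0.0495, edgeR adjusted p = 0.0771, and 0.0388 without Ocoxin library 3). In PRAD the groups were also apart but SMC3 was not called (log2 fold change -0.16, SE 0.0418, edgeR adjusted p = 0.091), and in PAAD they overlapped (log2 fold change -0.07, SE 0.066, edgeR adjusted p = 0.602).

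RAD21, the subunit that separase cuts (ENSG00000164754), was not called in any line. In COAD its level was 441, 422 and 448 CPM in the controls and 374, 379 and 409.9 CPM with Ocoxin (log2 fold change -0.17, SE 0.0483, edgeR adjusted p = 0.06). In PRAD it was 209, 211 and 215 CPM in the controls and 184, 189 and 195 CPM with Ocoxin (log2 fold change -0.16, SE 0.036, edgeR adjusted p = 0.061). The groups did not overlap in either line, and in COAD the call passed without Ocoxin library 3 (adjusted p = 0.0325) and with DESeq2 (0.0463). In PAAD and TNBC the groups overlapped, with log2 fold changes of -0.06 and 0.05 (edgeR adjusted p = 0.578 and 0.356). Exons of RAD21 overlap genes on the opposite strand (UTP23 over 8.37% and RAD21-AS1 over 5.83% of its exonic bases), and the counting did not use the strand.

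Of the alternative subunits, STAG1 was called in COAD and STAG2 was not. STAG1 (ENSG00000118007, chromosome 3, 136336233 to 136752403, minus strand) was at 95.3, 91.9 and 87.2 CPM in the COAD controls and at 73.8, 75.7 and 78.0 CPM with Ocoxin. All treated libraries lay below all controls and STAG1 was downregulated (log2 fold change -0.27, SE 0.0543, edgeR adjusted p = 0.00868). The call was lost without control 1 (adjusted p = 0.0898), control 2 (0.0645) or Ocoxin library 2 (0.081). STAG2 (ENSG00000101972, chromosome X, 123960212 to 124422664, plus strand) was at 493, 473 and 458 CPM and 439.9, 442 and 459 CPM, with overlap (log2 fold change -0.09, SE 0.0458, edgeR adjusted p = 0.37). In TNBC both had treated libraries above all controls but were not called, STAG1 with log2 fold change 0.08, SE 0.0376, edgeR adjusted p = 0.17, and STAG2 with log2 fold change 0.11, SE 0.0445, edgeR adjusted p = 0.106. With the replicate number as a block, for which the TNBC libraries passed the pairing check, STAG2 passed in TNBC at an edgeR adjusted p = 0.00246. That fit called 33.9% of all genes, beside 21% without the block. In PAAD and PRAD neither was called, and 21.2% of the exonic bases of STAG1 overlap PCCB on the opposite strand.

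Among the 3 regulators, calls were made in TNBC and in no other line. NIPBL, the loader (ENSG00000164190, chromosome 5, 36876759 to 37066413, plus strand), was at 376, 356 and 370.5 CPM in the TNBC controls and at 421, 419.6 and 418 CPM with Ocoxin. This was the largest increase among the 9 genes in TNBC (log2 fold change 0.19, SE 0.0339, edgeR adjusted p = 0.00191), and its call was kept when any 1 library was left out but lost with all 24 libraries in 1 fit (adjusted p = 0.067). PDS5A (ENSG00000121892, chromosome 4, 39822863 to 39977956, minus strand) was at 201, 193 and 193 CPM in the controls and 216, 209 and 219 CPM with Ocoxin (log2 fold change 0.13, SE 0.037, edgeR adjusted p = 0.0253). The PDS5A call was lost without control 2 (adjusted p = 0.082), control 3 (0.0771) or Ocoxin library 1 (0.0998), with all 24 libraries in 1 fit (0.143), and with the same trend removal (0.388, log2 fold change 0.05). The signs of PDS5A were those of ESPL1 in all 4 lines, with -0.06 for COAD, 0.04 for PAAD and -0.03 for PRAD, none of them called. WAPL, the releasing factor (ENSG00000062650, chromosome 10, 86435256 to 86521815, minus strand), was not called in any line, and its log2 fold change was -0.05 for COAD, -0.05 for PAAD, -0.05 for PRAD and 0.06 for TNBC. NIPBL in PRAD had the opposite sign to the other cohesin genes there, with 187, 169 and 153 CPM in the controls and 179, 194 and 189.7 CPM with Ocoxin, and the groups overlapped (log2 fold change 0.14, SE 0.0711, edgeR adjusted p = 0.304). NIPBL was not called in COAD (log2 fold change -0.13, SE 0.0631, edgeR adjusted p = 0.335, and 0.0277 without control 3).

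**Figure D2:**
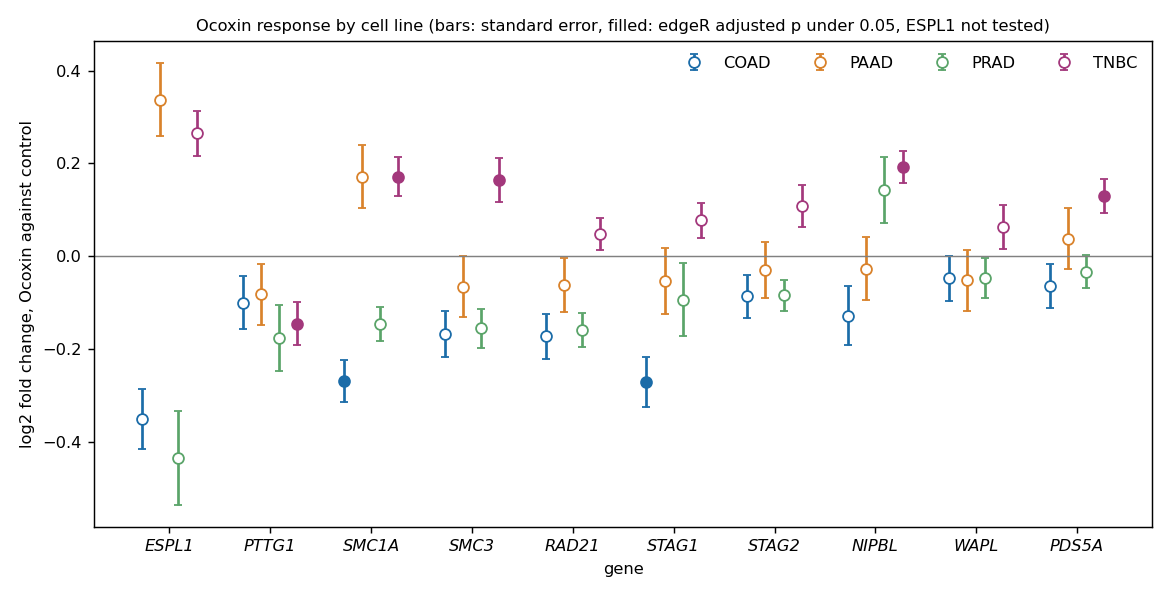
The log2 fold change of Ocoxin against control (vertical axis) for each of the 10 genes (horizontal axis) in the 4 lines, with bars for the standard error from 3 against 3 libraries. Filled points passed an edgeR adjusted p under 0.05 and ESPL1 was not tested. The TNBC points of the 8 cohesin genes all lie above 0, and the COAD points of the same genes all lie below 0.

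As a group, the 8 cohesin genes had median log2 fold changes of -0.15 (COAD), -0.04 (PAAD), -0.09 (PRAD) and 0.12 (TNBC), beside medians over all genes of -0.00530, 0.00269, 0.00879 and 0.00556. The number of these genes with a negative value was 8 for COAD (51.4% of all genes), 6 for PAAD (49.4%), 7 for PRAD (47.6%) and 0 for TNBC (49%). The PAAD median changed sign without control 3 (0.00298) or without Ocoxin library 1 (0.00232). Treated and control libraries did not overlap for 4 of the 9 genes in COAD (20.6% of all genes), 0 in PAAD (27.5%), 5 in PRAD (27.6%) and 7 in TNBC (38.1%). Fewer of the 9 genes were called in TNBC when 1 library was left out, which leaves 2 libraries in a group. Without control 2 or without Ocoxin library 1, 1 was called (NIPBL), beside 12.9% of all genes in each fit. Without Ocoxin library 2 it was 2 (13.1% of all genes), and without control 1 it was 3 (14.9%). Without control 3 it was 3 (16.6%), and without Ocoxin library 3 it was 4 (21.8%). The TNBC median of the 8 cohesin genes was 0.09115 to 0.137 in these fits. The COAD count was 1 without control 1 (0.777% of all genes), control 2 (0.768%) or Ocoxin library 2 (0.669%). It was 4 without Ocoxin library 3 (1.86%). In PRAD, removal of the trend of each library's counts with exonic length and GC moved the count from 0 to 5 of 9 (PTTG1, SMC1A, SMC3, RAD21 and STAG2, all negative), with the median of the 8 cohesin genes at -0.16 and that of all genes at -0.07. Over all genes that removal changed the split in PRAD from 409 up and 99 down to 695 up and 1959 down, and in COAD from 259 up and 192 down to 247 up and 420 down. It also changed the split in TNBC from 1675 up and 1969 down to 1426 up and 2377 down, where 3 of the 9 remained called, and the median of the 8 cohesin genes there was 0.05. Of the 8 genes, SMC1A has 47.5% GC and the others have 38.5 to 40.4%, and ESPL1 has 55.3%.

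Whether cohesin followed the signs of ESPL1 was tested as a difference in response, the mean of PAAD and TNBC minus the mean of COAD and PRAD, in a fit of all 24 libraries. The lines were split by the signs of ESPL1, whose own difference was 0.70 on the log2 scale (SE 0.0808) and is no test. SMC1A responded more positively in PAAD and TNBC, by 0.39 (SE 0.0513, edgeR adjusted p = 7.79e-06). The difference was 0.22 (SE 0.057, edgeR adjusted p = 0.0158) for SMC3, 0.20 (SE 0.0633, edgeR adjusted p = 0.0487) for STAG1 and 0.17 (SE 0.048, edgeR adjusted p = 0.0292) for RAD21. These 4 of the 9 genes passed, where 6.21% of all genes did and 3.34% in that direction (2.87% in the other). STAG2, at 0.13 (SE 0.0501, edgeR adjusted p = 0.116), PDS5A, at 0.14 (SE 0.0516, edgeR adjusted p = 0.103), NIPBL, at 0.08 (SE 0.0661, edgeR adjusted p = 0.588), and WAPL, at 0.06 (SE 0.0552, edgeR adjusted p = 0.661), did not pass. The difference of PTTG1 was 0.03 (SE 0.0643, edgeR adjusted p = 0.959). Over the 8 cohesin genes the median difference was 0.15, and over all genes it was -0.01.

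**Figure D3:**
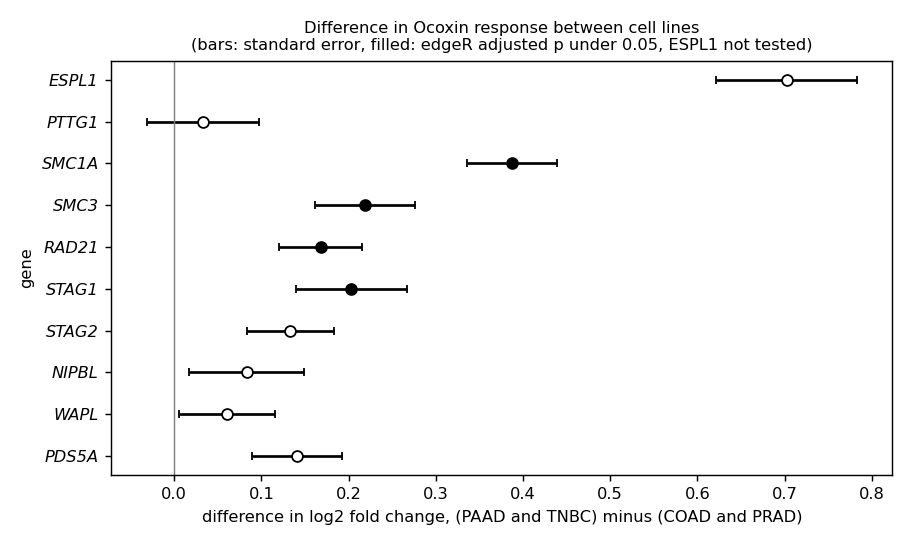
Difference in log2 fold change between lines (horizontal axis, PAAD and TNBC minus COAD and PRAD) for the 10 genes (vertical axis), with bars for the standard error from the fit of 24 libraries. Filled points passed an edgeR adjusted p under 0.05 and ESPL1 was not tested. SMC1A at 0.39 is the tested gene nearest to ESPL1 at 0.70, and PTTG1 lies at 0.03.

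The SMC1A difference held in all 32 alternatives run for this comparison. The others were less firm. SMC3 lost its call without the PRAD libraries (adjusted p = 0.0708), when SMC1A and STAG1 were called, RAD21 lost it in 13 of 32 alternatives (up to 0.122) and STAG1 in 20 of 32 (up to 0.14). Leaving out 1 library left 2 of the 9 genes called (SMC1A and SMC3) for COAD control 1, Ocoxin 1 and Ocoxin 2, PAAD control 1 and Ocoxin 3, PRAD control 3, Ocoxin 1 and Ocoxin 2, and TNBC control 2 and Ocoxin 3. In these fits 4.7 to 6.6% of all genes were called. Leaving out PAAD control 3 left 6 of the 9, where 7.21% of all genes were called. For SMC3, RAD21 and STAG1 the separate values were negative in PAAD, at -0.07, -0.06 and -0.05, so their sign did not follow that of ESPL1 in that line. Removal of the length and GC trend changed the split over all genes from 823 higher and 706 lower to 2193 higher and 516 lower, with 6 of the 9 genes called. With DESeq2 size factors the split was 690 higher and 798 lower, and 2 of the 9 were called.

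Ratios within a library compare subunits without reference to the other genes, and an exact permutation test of 3 against 3 cannot go below p = 0.1 (two-sided). Per kb, STAG2 mRNA was 4.98 times STAG1 mRNA in the COAD controls and 5.65 times with Ocoxin, without overlap (log2 difference 0.18, exact permutation p = 0.1). The ratio was 5.91 in PAAD, 3.03 in PRAD and 2.07 in TNBC controls, and in each the treated libraries overlapped the controls. PCCB overlaps 21.2% of the exonic bases of STAG1 and strand was not used, so the size of the STAG2 to STAG1 ratio is uncertain. SMC3 was 3.10 times SMC1A in the PAAD controls and 2.63 times with Ocoxin, without overlap (log2 difference -0.24, exact permutation p = 0.1). Securin mRNA per separase mRNA went in the directions that ESPL1 sets. It was 2.24 in the COAD controls and 2.67 with Ocoxin, 1.75 and 2.11 in PRAD, 7.50 and 5.60 in PAAD, and 3.94 and 2.97 in TNBC. The groups overlapped in COAD and not in the other lines, and these ratios are a description since ESPL1 chose the set.

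**Figure D4:**
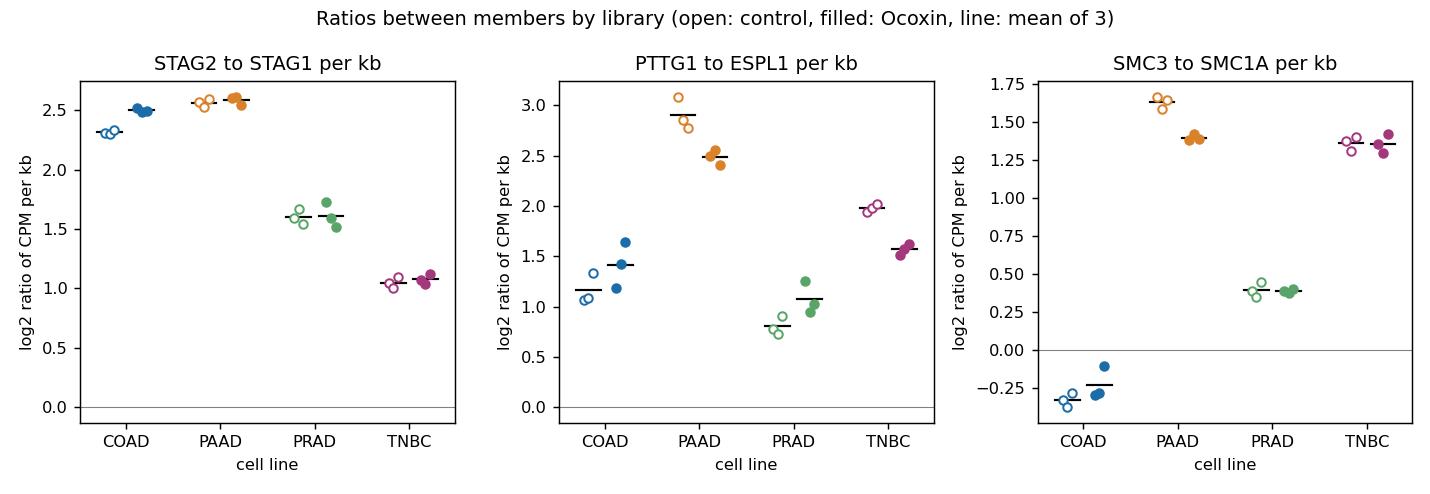
Ratios of mRNA levels per kb in each library on a log2 scale (vertical axes) by cell line (horizontal axes), with open circles for controls, filled circles for Ocoxin and lines for means of 3. STAG2 to STAG1 lies higher with Ocoxin in COAD, PTTG1 to ESPL1 lies lower in PAAD and TNBC, and SMC3 to SMC1A lies lower in PAAD.

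Genes that work with cohesin gave 15 tested genes in COAD and 14 in each other line, of 17 listed. In COAD 0 were upregulated and 1 was downregulated, in PAAD the numbers were 3 and 1, in PRAD 0 and 0 (5 at an unadjusted p under 0.05), and in TNBC 5 and 1. Over all genes, 2.55% (COAD), 8.33% (PAAD), 2.98% (PRAD) and 21% (TNBC) were altered. The share of all genes at the unadjusted threshold was not counted. Median log2 fold changes were negative for COAD (-0.12) and PRAD (-0.05) and positive for PAAD (0.13) and TNBC (0.08). CTCF, which stops loop extrusion, showed the same directions as SMC1A. It was at 214, 211 and 217 CPM in the COAD controls and 195, 187 and 186 CPM with Ocoxin (log2 fold change -0.18, SE 0.0466, edgeR adjusted p = 0.0451). It was at 154, 161 and 153 CPM in the TNBC controls and 181, 176 and 182 CPM with Ocoxin (log2 fold change 0.20, SE 0.0378, edgeR adjusted p = 0.00266). Neither pair of groups overlapped, and the difference between lines was 0.32 (SE 0.0445, edgeR adjusted p = 1.55e-05). CDCA5 (sororin), which protects cohesin from WAPL, was at 106, 104 and 101 CPM in the PAAD controls and 124, 128 and 134 CPM with Ocoxin (log2 fold change 0.31, SE 0.0566, edgeR adjusted p = 0.003), and differed between lines by 0.39 (SE 0.0575, edgeR adjusted p = 4.51e-05). SGO1 (shugoshin), which guards centromeric cohesin, was upregulated in PAAD (log2 fold change 0.32, SE 0.0912, edgeR adjusted p = 0.04). MAU2, the partner of NIPBL, was upregulated in TNBC (log2 fold change 0.18, SE 0.0486, edgeR adjusted p = 0.0208) and differed between lines by 0.24 (SE 0.051, edgeR adjusted p = 0.00281). ESCO2, which acetylates SMC3 in S phase, was not called in any line but differed between them by 0.35 (SE 0.0896, edgeR adjusted p = 0.0132). DDX11, a DNA helicase that takes part in cohesion, was upregulated in PAAD (log2 fold change 0.34, SE 0.0604, edgeR adjusted p = 0.00265) and TNBC (log2 fold change 0.25, SE 0.0527, edgeR adjusted p = 0.00479). It differed between lines by 0.42 (SE 0.068, edgeR adjusted p = 0.000143), but it has near-identical copies and its values are uncertain.

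The germline subunits STAG3 and SMC1B were upregulated in TNBC. STAG3 was low, at 2.99, 2.76 and 2.31 CPM in the controls and 4.6, 4.12 and 4.27 CPM with Ocoxin, that is 86 to 171 counts per library (log2 fold change 0.69, SE 0.149, edgeR adjusted p = 0.0062). SMC1B was at 58.9, 54.0 and 48.3 CPM in the controls and 70.5, 76.8 and 66.6 CPM with Ocoxin (log2 fold change 0.41, SE 0.0742, edgeR adjusted p = 0.00314). In PAAD, where SMC1B was at 34.6, 34.7 and 35.2 CPM in the controls, it was not called (log2 fold change 0.05, SE 0.0713, edgeR adjusted p = 0.705), and in PRAD it was too low to test. PTTG1IP, which binds securin, moved the other way. It was at 352, 363 and 352 CPM in the TNBC controls and 271, 285 and 276 CPM with Ocoxin, was downregulated there (log2 fold change -0.36, SE 0.035, edgeR adjusted p = 3.22e-05) and in PAAD (log2 fold change -0.24, SE 0.0609, edgeR adjusted p = 0.0242), and differed between lines by -0.31 (SE 0.0504, edgeR adjusted p = 0.000175). PDS5B, ESCO1, HDAC8, SGO2 and REC8 were tested in all 4 lines and were not called, PTTG3P was tested in COAD and PRAD and was not called, and RAD21L1 and PTTG2 were too low to test in any line.

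**Figure D5:**
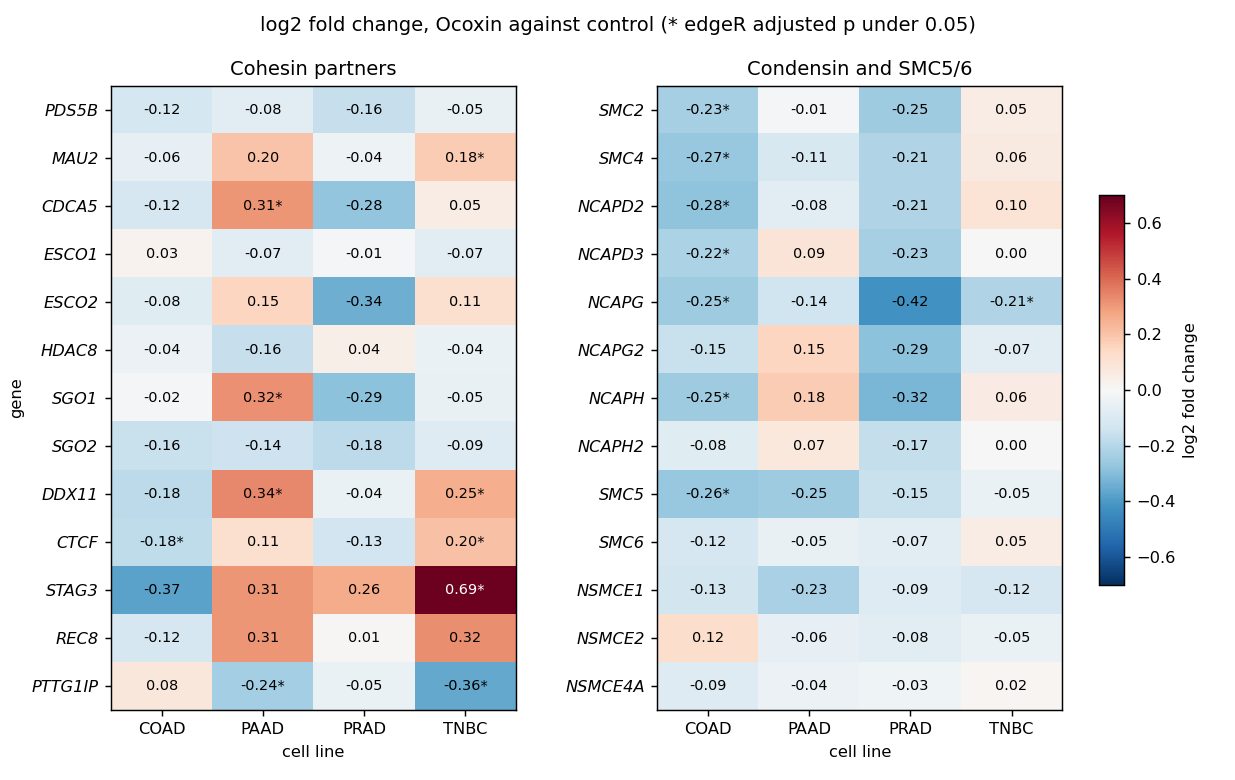
Colour map of the log2 fold change of Ocoxin against control, with genes in rows and cell lines in columns, for the cohesin partners (left) and the condensin and SMC5/6 genes (right) tested in all 4 lines. Stars mark an edgeR adjusted p under 0.05. The starred condensin and SMC5/6 values are negative and 7 of them are in COAD, and the starred partner values in PAAD and TNBC are positive except those of PTTG1IP.

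Condensin and the SMC5/6 complex are ring complexes related to cohesin, and condensin compacts chromosomes in mitosis. In COAD 7 of the 13 genes tested were downregulated and 0 were upregulated, with a median log2 fold change of -0.22, where 1.09% of all genes were downregulated. The median was -0.21 in PRAD, where 0 were called, -0.05 in PAAD, where 0 were called, and 0.00140 in TNBC, where 1 was. At an unadjusted p under 0.05, 3 passed in PAAD and 9 in PRAD, and the share of all genes at that threshold was not counted. NCAPG, a condensin subunit, was the gene of this list altered in more than 1 line, and was downregulated in COAD (log2 fold change -0.25, SE 0.0514, edgeR adjusted p = 0.0104) and in TNBC (log2 fold change -0.21, SE 0.0574, edgeR adjusted p = 0.0209). Between lines 5 of the 13 differed, all higher in PAAD and TNBC, as 3.34% of all genes were. They were SMC2, NCAPD2, NCAPD3, NCAPG2 and NCAPH, named after their values were seen.

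Of the anaphase promoting complex and the spindle checkpoint, which set off securin destruction, 3 of 26 genes were downregulated in COAD (ANAPC1, CDC20 and BUB1B, named after their values were seen), as 1.09% of all genes were. In TNBC 1 was upregulated (ANAPC5) and 6 were downregulated (ANAPC11, ANAPC15, ANAPC16, CDK1, UBE2C and UBE2S), likewise named. There 9.65% of all genes were upregulated and 11.3% downregulated. In PAAD 0 of 25 and in PRAD 0 of 26 were altered, beside 8.33% and 2.98% of all genes. At an unadjusted p under 0.05, 2 and 9 passed, and the share of all genes at that threshold was not counted. ANAPC1 and BUB1B differed between lines, by 0.24 (SE 0.0638, edgeR adjusted p = 0.019) and 0.32 (SE 0.0668, edgeR adjusted p = 0.00232).

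A list of 54 G2/M genes was counted beside these results. In COAD 22 were downregulated and 0 upregulated, in PAAD 1 and 0 (JPT1), in PRAD 2 and 0 (CDCA3 and CDCA8), and in TNBC 6 and 5. The genes in brackets were named after their values were seen. The shares of all genes downregulated and upregulated were 1.09% and 1.47% in COAD, 3.62% and 4.72% in PAAD, 0.58% and 2.4% in PRAD, and 11.3% and 9.65% in TNBC. The median log2 fold change of the list was -0.18 in COAD with 53 of the 54 below 0, and -0.22 in PRAD with 53 below 0. It was -0.03 in PAAD with 31 below 0 and 0.00103 in TNBC with 27 below 0. Between lines 21 of them were higher in PAAD and TNBC and 1 was lower (JPT1), beside 3.34% and 2.87% of all genes, with a median difference of 0.20. The list shares CTCF, SMC4, NCAPD2, CDC20, UBE2C and CDK1 with the lists above, and its part in the cohesin values was not tested.

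The genes whose levels ran closest to ESPL1 were found from log2 CPM (plus 0.5) centred on each line, as the root mean square difference from ESPL1 over the 24 libraries. Of 13340 genes, the nearest were FANCA, a gene of the Fanconi anaemia repair pathway, at 0.0790, KIF18B, a mitotic kinesin, at 0.0803, INCENP, a subunit of the chromosomal passenger complex, at 0.0870, CIT, a kinase of cytokinesis, at 0.0872, and LIG1, the replicative DNA ligase, at 0.0931. The median over all genes was 0.236. SMC1A had rank 30 (0.118), the nearest of the 9 genes. The ranks of the other cohesin genes were 496 for STAG1, 711 for SMC3, 865 for RAD21, 939 for PDS5A, 1222 for STAG2, 2178 for WAPL and 3201 for NIPBL, and that of PTTG1 was 3095. The measure includes the libraries that chose the set, so it is a description.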

How the data were processed

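RNAseq of adhered cells was performed by the authors with a stranded mRNA kit, and reads were trimmed, aligned to hg38 with STAR, freed of PCR duplicates with picard and counted over exons with featureCounts 2.0.3. The deposited values are whole counts of reads per gene for 58051 genes, without normalization, and 56948 identifiers matched a symbol. The PRAD libraries were counted without the paired-end option and the others with it. Strand was not used, read pairs were not counted as 1 fragment, and multi-mapping reads were kept at their primary alignment.

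In R 4.3.3, genes were filtered with filterByExpr and libraries scaled with TMM of edgeR 4.0.16. Each line was tested alone (3 control against 3 Ocoxin libraries) with the robust two-sided quasi-likelihood F-test, p-values adjusted by Benjamini-Hochberg over every gene tested in that line, a threshold of 0.05 and no minimum fold. The difference between lines was a contrast in a fit of all 24 libraries. The SE is the absolute log2 fold change divided by the square root of F. Fold changes are shown on the edgeR log2 scale and levels as CPM. Alternatives used DESeq2 1.42.0, DESeq2 size factors, other filters, a replicate block, a joint fit of all libraries, removal of a length and GC trend (splines with 5 degrees of freedom), no PRAD libraries, and each library left out.

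The members and lists were chosen with earlier results of these data known, so no pattern here is independent of that choice. The genes named were the 10 members, all tested cohesin partners, genes of the condensin and anaphase promoting complex lists altered in at least 2 lines, and the 5 genes nearest to ESPL1. Exceptions are stated in the text. Same-numbered control and Ocoxin libraries were checked for pairing by the correlation of their deviations from the group means in log2 of CPM plus 0.5. All 3 were over 0.1 in TNBC (0.127, 0.12 and 0.358), and not in COAD, PAAD or PRAD. PRAD missed this cutoff narrowly, with 0.243, 0.0997 and 0.425. The TNBC values given are from the fit without the block, and the blocked value is printed where it changed a TNBC call. On the edgeR log CPM scale TNBC did not pass (0.0726, 0.062 and 0.224), and on both scales the TNBC libraries numbered 1 did not correlate best with each other. PRAD had higher values on that scale (0.236, 0.0912 and 0.407) and did not pass either. Each PRAD library correlated best with its own number on both scales. No 2 libraries of a group agreed within sampling noise (chi-square per degree of freedom 1.75 to 13.6). The depths per line allowed 383 counts or more for every member in every library.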

Additional observations from a re-analysis of the deposited data

Results flagged for a closer look

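The response to Ocoxin differed between PAAD and TNBC on the one side and COAD and PRAD on the other for 4 of the 9 genes tested, by the contrast in the fit of all 24 libraries (edgeR). The differences on the log2 scale were 0.39 for SMC1A, 0.22 for SMC3, 0.17 for RAD21 and 0.20 for STAG1. The adjusted p was 7.79e-06, 0.0158, 0.0292 and 0.0487 in that order, and over the alternatives it ranged up to 0.0708 for SMC3, 0.122 for RAD21 and 0.14 for STAG1. The lines were grouped by the signs of ESPL1 in the same libraries. The paper states that the PAAD and TNBC lines derive from primary tumours and the COAD and PRAD lines from metastatic sites. Doses also differed between the lines, and PRAD was counted in a separate run. Origin, dose and counting run cannot be told apart from the cell line.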

How the results depend on the processing

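Of the 1024 alternative values computed, 867 were labelled the same, 61 lost a call, 47 gained one, 40 moved and 9 changed sign. A tested gene was labelled the same if it kept its direction and side of the threshold. Counts were labelled the same within a set ratio of the main count, so a small change in a count could pass. Medians and ESPL1 values were labelled the same within a set multiple of the SE. With the replicate number as a block the number of the 9 genes altered was 5 (COAD), 1 (PAAD), 1 (PRAD), 6 (TNBC) and 6 for the difference between lines. Over all genes the block gave 10.9% (COAD), 23.1% (PAAD), 8.5% (PRAD), 33.9% (TNBC) and 12.8% (difference between lines), so calls rose over all genes as well. Only TNBC passed the pairing check, which PRAD missed narrowly, so elsewhere the block is no measure of a stronger or weaker effect. Each PAAD and PRAD library correlated best with its own number, a hint from the data and not from the design. With the block and the trend with length and GC removed, the counts were 6 in COAD, 1 in PAAD and 8 in PRAD. Over all genes 15.1%, 19.4% and 32.9% were altered in these fits. The count was 8 for the difference between lines, beside 16.9% of all genes. With the trend removed alone the counts were 5 in PRAD (15.5% of all genes) and 3 in TNBC (21.9%). The median log2 fold change of the 8 cohesin genes was then -0.163 in PRAD and 0.0540 in TNBC, and -0.163 and 0.0542 with the block as well. With all 24 libraries in 1 fit the counts were 1 in PAAD (6.91% of all genes), 2 in PRAD (4.05%) and 1 in TNBC (11.1%). Without a filter on low counts 3 were called in PRAD (3.28%). For the difference between lines the count was 2 with DESeq2 size factors (6.04%) and 2 without PRAD (6.95%). Leaving out 1 library gave 1 to 4 in COAD, 0 to 1 in PAAD, 0 in PRAD, 1 to 4 in TNBC and 2 to 6 for the difference between lines. In those fits a group holds 2 libraries. The shares of all genes called ranged over 0.669 to 4.33% in COAD, 3.64 to 9.77% in PAAD and 0.0173 to 2.28% in PRAD. They were 12.9 to 21.8% in TNBC and 4.7 to 7.21% for the difference between lines. The PAAD median ranged from -0.0897 to 0.00298 and changed sign without control 3 (0.00298) and Ocoxin 1 (0.00232). Single genes changed sign in PAAD, where none was called: PDS5A without control 1 (-0.0181) and Ocoxin 3 (-0.0116; up to 0.0862), STAG2 without control 3 (0.0176) and Ocoxin 1 (0.00776; down to -0.0703), and NIPBL without control 3 (0.0452) and Ocoxin 1 (0.0083; down to -0.0790). The difference of PTTG1 between lines was -0.0215 without PRAD. The cause of these shifts was not tested. Depth was lowest in PRAD, where the lowest count of PTTG1 in a library was 383.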

Other observations

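Other ratios between the cohesin genes, taken per kb within a library, were apart between groups in some lines. RAD21 was 3.91 times SMC3 in the TNBC controls and 3.60 times with Ocoxin (log2 difference -0.12, exact permutation p = 0.1, the smallest this design allows). Both genes had positive log2 fold changes there, 0.16 for SMC3 and 0.05 for RAD21. In COAD, PAAD and PRAD the groups overlapped for the RAD21 to SMC3 ratio. NIPBL, the loader, was 0.773 times WAPL, the releasing factor, in the PRAD controls and 0.884 times with Ocoxin, and 2.65 and 2.90 times in TNBC, without overlap in either line (exact permutation p = 0.1 in each). The order of the genes within a line also differed: RAD21 had the highest control level per kb of the 10 genes in COAD, PAAD and TNBC, and SMC3 had it in PRAD, at 41.3 ± 1.48 CPM per kb against 34.2 ± 0.545 for RAD21 (SD, n = 3).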
